A study of Rattus norvegicus with 34 samples.

Results

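The untreated baseline of the adult rat testis was made up of the 6 arrays labelled Control (replicates 02 to 07) that held values, of 31 arrays with values and 34 labelled in the series. They were taken by their group label alone, and no measured value entered the choice. Each array carried RNA from the testis of 1 Wistar Han IGS rat on postnatal day 92, after puberty in this species, on a 0 ppm diet. The controls belonged to a feeding study of triazole fungicides that ran from gestation day 6 to postnatal day 92. Another Control array, replicate 01, carries a label that excludes it from the study's final analysis, and it was not analysed here. The animal numbers were 2553, 2558 and 2561 for replicates 02 to 04, and 3144, 3145 and 3156 for replicates 05 to 07. The labels do not name the litters. With 1 array per animal, differences between animals, between RNA preparations and between arrays cannot be told apart.

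Each probe set has 1 deposited score per array, on a scale that behaves like a logarithm of unknown base, so no fold can be given and a difference is stated in these score units. The 6 arrays were quantile normalized together, which gives probe sets of equal rank equal scores, and these scores are used unless another scaling is named. Each of 14217 genes was represented by its probe set of highest mean. A rank orders scores, and since probe sets bind their targets unequally it does not order transcript amounts. In whole tissue, fewer cells of a type and less RNA per cell cannot be told apart.

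Control 02 and Control 06 stood apart from the other 4 arrays. The pair correlated with each other at Pearson r = 0.977 over 31042 probe sets, the other 4 with one another at 0.994 to 0.998 in 6 pairs, and the pair with the other 4 at 0.954 to 0.965. These correlations describe arrays of 1 design, which share probe affinities. The first principal component, with 71.4% of the variance, put Control 02 at -23.1 and Control 06 at -20.4, against 9.98 to 13.1 for the others. The second, with 19.4%, set Control 02 (13.2) against Control 06 (-14.0). The gap between 3' and 5' probe sets of beta-actin, a measure of how complete the copied RNA was, reached 1.71 and 1.68 score units in Control 02 and 06, against 0.858 to 0.905 in the other 4. The GAPDH gap was 0.738 and 0.657 in the pair, against 0.209 to 0.311 in the other 4, while the hexokinase gap was 1.22 and 0.886 in the pair, against 0.898 to 0.973. The deposited scores of Control 02 also covered a wider range, with a maximum of 8.21 against 4.11 to 4.60 on the other 5 arrays. After quantile normalization 6.95% of probe sets lay above the hybridisation control bioB on Control 02 and 13.2% on Control 06, against 14.3% to 16.4% on the other 4. The part of RNA quality in the results below was not tested, and results that rest on the pair are given with and without it.

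In the seminiferous tubules of the adult testis, spermatogonia divide and give rise to spermatocytes, which pass through meiosis and become round spermatids. Spermatids then build a flagellum and an acrosome, shed most of their cytoplasm and exchange their histones, first for transition proteins and then for protamines. Sertoli cells nurse all of these stages within the tubule, and Leydig cells between the tubules make testosterone. Many spermatid transcripts are made early, stored and translated days later, and in the mouse the cAMP-responsive factor CREM is known to switch on a number of them.

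The highest scores of the untreated testis belonged to products of spermatids and sperm. Of the 30 genes of highest mean, 13 were members of 5 lists of spermatid and sperm genes, and 0 were members of 6 lists of somatic cells. In the top 5% of genes by mean, which held 711 genes, stood 52 of the 86 genes of the spermatid and sperm lists (60.5%), against 4 of the 113 genes of the somatic lists (3.54%) and 5.0% of all genes. Aamp (2.208) was the last gene inside that threshold and Eif3m (2.207) the first outside it. Without Control 02 and 06, 28 of the 30 genes were again among the 30 highest. Prm1 of spermatids, Sycp3 of spermatocytes, Clu of Sertoli cells and Insl3 of Leydig cells averaged above the median gene (0.275). Kit of spermatogonia (-0.0165) and Amh of Sertoli cells (-0.133) averaged below it. At or above it lay 16 of 17 spermatocyte, 17 of 24 Sertoli cell, 15 of 19 Leydig cell and 5 of 15 spermatogonial genes. The share of each list is shown in the plot of lists.

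**Figure D1:**
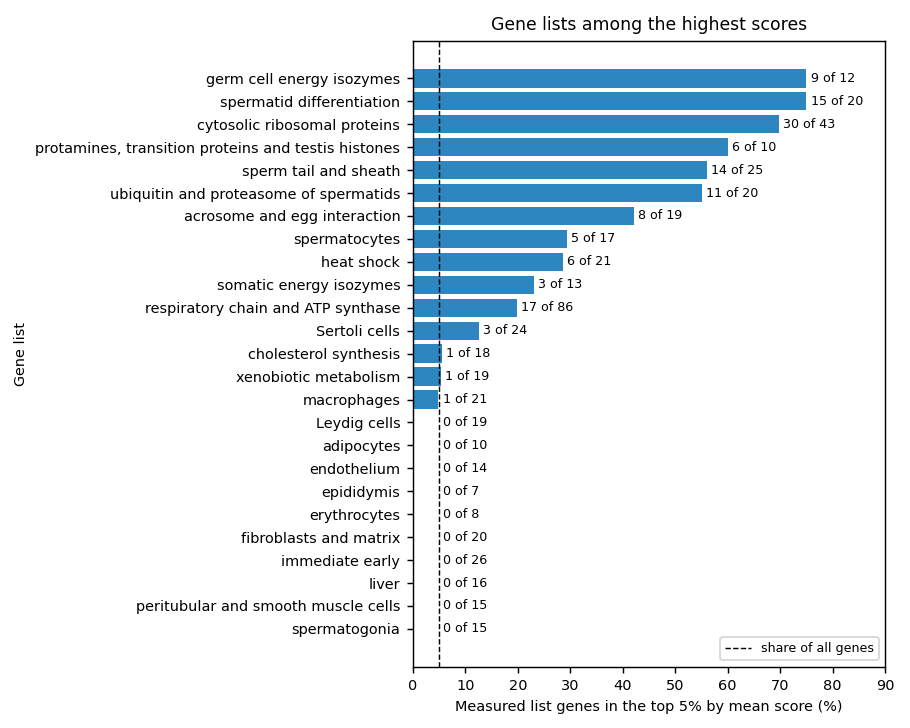
Share of each gene list's measured members (x axis, percent) that stood in the top 5% of 14217 genes by mean score over the 6 Control arrays, 1 bar per list, with the counts beside the bars. The dashed line marks the 5.0% of all genes; spermatid differentiation and germ cell energy isozymes (75.0% each) reached farthest, and lists with no member there show 0.

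Chromatin packing of the sperm head held the first place. Prm1, protamine 1, was the top gene on each of the 6 arrays, with deposited scores of 8.21 in Control 02 and 4.39 in Control 06, against 4.11 to 4.60 in the others. Quantile normalization gives the top rank 1 value, 4.97, so the normalized scores of Prm1 hold no measure of its spread. Tnp1, transition protein 1, had a lowest score of 4.06, a median of 4.76 and a highest of 4.76, and Tnp2, transition protein 2, of 3.66, 4.35 and 4.38. Both genes were lowest in Control 02 and 06. Prm2, protamine 2, stood at rank 33 with a lowest score of 3.53 in Control 06, a median of 3.79 and a highest of 3.80. Prm3, a protamine-like gene, averaged 3.12 and Hils1, a linker histone of spermatids, 3.70. In all, 6 of 10 measured members of the list of protamines, transition proteins and testis histones were in the top 5%. At the other end of the list were the testis linker histone H1f6 (mean -0.0635) and the testis histone H2bc1 (-0.317), both below the median gene (0.275).

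The promoters of these leading genes are printed because 7 of the 23 with a RefSeq promoter of 250 bases upstream of the start held a match to a cAMP response element or a close variant of it (30.4%), against 5.21% of 11734 array genes and 6.76% of all 27457 promoters searched. The motifs, chosen after earlier values of these data were seen, were TGACGTCA, which reads alike on both strands, TGACATCA and TGACTTCA, each searched on both strands. The variant TGACATCA was in 6 of the 23 (26.1%), against 1.7% of the array genes and 3.75% of all promoters searched. TGACTTCA was in 2 of the 23 (8.7%), against 0.946% and 1.4%, and TGACGTCA in 1 (4.35%), against 2.64% and 1.7%. Among the genes of the top 5%, 48 of 607 promoters held any of the 3 (7.91%). So did 5 of 37 promoters of cytosolic ribosomal protein genes (13.5%). Of the 30 genes of highest SD over the 6 arrays, 5 of 29 promoters did (17.2%). Tnp2, Odf2 and Crisp2, which were among the 23, held no match, nor did Prm3, which was not. Each promoter printed below holds a match. Matches are a description of these letters and not of binding, and those shown do not overlap. The sequences run 5′ to 3′ on the gene's strand in build GRCr8 and end at the base before the start, with matches in capitals. They belong to Prm1 (chr10:5378490-5378739, plus strand), the antizyme gene Oaz3 (chr2:184765177-184765426, minus), Tnp1 (chr9:82044279-82044528, minus), the mitochondrial capsule gene Smcp (chr2:180861565-180861814, minus), the glycolytic gene Gapdhs (chr1:95121056-95121305, minus), Spata6 of the connecting piece (chr5:131821335-131821584, plus) and the testis histone gene H2al2l (chrX:16136038-16136287, minus). H2al2l was the gene that varied most between arrays and was not among the 23.
Prm1: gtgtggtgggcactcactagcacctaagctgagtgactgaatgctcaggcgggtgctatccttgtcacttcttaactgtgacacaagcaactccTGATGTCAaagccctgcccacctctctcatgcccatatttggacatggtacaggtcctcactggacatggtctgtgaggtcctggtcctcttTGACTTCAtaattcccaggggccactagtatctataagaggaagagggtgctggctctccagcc
Oaz3: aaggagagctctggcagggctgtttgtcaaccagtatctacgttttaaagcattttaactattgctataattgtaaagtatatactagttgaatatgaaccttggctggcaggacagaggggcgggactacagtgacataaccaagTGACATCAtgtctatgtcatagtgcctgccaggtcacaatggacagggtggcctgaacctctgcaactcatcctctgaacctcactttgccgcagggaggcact
Tnp1: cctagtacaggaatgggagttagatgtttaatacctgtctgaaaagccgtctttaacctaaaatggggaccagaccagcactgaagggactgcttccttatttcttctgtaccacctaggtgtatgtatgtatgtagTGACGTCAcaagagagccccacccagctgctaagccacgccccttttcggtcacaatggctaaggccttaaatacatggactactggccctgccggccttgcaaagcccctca
Smcp: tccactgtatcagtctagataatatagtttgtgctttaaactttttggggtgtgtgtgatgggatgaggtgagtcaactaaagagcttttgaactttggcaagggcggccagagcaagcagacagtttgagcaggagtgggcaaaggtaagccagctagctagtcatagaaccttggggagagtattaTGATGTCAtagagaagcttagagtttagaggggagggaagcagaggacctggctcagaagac
Gapdhs: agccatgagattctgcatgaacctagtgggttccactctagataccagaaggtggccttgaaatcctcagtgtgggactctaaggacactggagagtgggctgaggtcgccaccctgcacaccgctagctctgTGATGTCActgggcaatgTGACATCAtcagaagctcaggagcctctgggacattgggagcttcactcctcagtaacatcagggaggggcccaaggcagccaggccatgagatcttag
Spata6: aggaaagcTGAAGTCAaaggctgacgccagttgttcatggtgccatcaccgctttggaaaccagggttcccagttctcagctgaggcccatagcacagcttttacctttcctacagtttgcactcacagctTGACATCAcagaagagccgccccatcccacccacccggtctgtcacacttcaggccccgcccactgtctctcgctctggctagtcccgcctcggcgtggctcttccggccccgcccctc
H2al2l: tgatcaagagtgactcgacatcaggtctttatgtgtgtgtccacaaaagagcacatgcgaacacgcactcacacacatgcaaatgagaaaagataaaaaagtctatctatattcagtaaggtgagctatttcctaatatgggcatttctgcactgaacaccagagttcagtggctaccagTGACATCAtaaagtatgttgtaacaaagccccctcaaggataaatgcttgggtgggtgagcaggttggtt

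Prm1 carries its matches 156 and 64 bases before the start, counted to the first base of the match, and Tnp1 its full palindrome 113 bases before it. In Oaz3 the match lies 104 bases, in Smcp 62, in H2al2l 70, in Gapdhs 117 and 99, and in Spata6 242 and 119 bases before the start. The other match among the leading genes was in Glul, glutamine synthetase, at 234 bases. Crem itself, the factor named above, averaged 2.13 at rank 794, outside the top 5%. It scored 1.53 and 1.67 in Control 02 and 06, against 2.31 to 2.43 in the other 4.

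Genes of the sperm tail came next. Odf1, an outer dense fibre protein, had a lowest score of 4.43, a median of 4.78 and a highest of 4.78, and stood at rank 3. Smcp, the cysteine-rich protein of the mitochondrial capsule, ranged from 4.01 to 4.58 with a median of 4.53. Both were lowest in Control 02 and 06. Odf2, another fibre protein, ran the other way and was highest in Control 02 and 06 (4.50 and 4.55, against 4.23 to 4.31). That order rests on 1 of its 3 probe sets. The others scored 1.01 and 1.32 in the pair, against 0.994 to 1.14, and -0.174 and -0.260, against -0.197 to -0.126. Gstm5, a glutathione transferase, averaged 4.00, and the beta-tubulin gene Tubb4b 3.97 with a range of 0.0509 over the 6 arrays. That narrow range holds after quantile normalization, which sets a score by its rank. As deposited Tubb4b scored 6.00 in Control 02, against 3.40 to 3.73 on the other arrays. Akap4, the anchoring protein of the fibrous sheath, averaged 3.56 at rank 53 and was highest in Control 06 (3.76). In all, 14 of 25 tail and sheath genes stood in the top 5%, and 24 of 25 lay at or above the median gene.

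The list of spermatid differentiation had 15 of its 20 measured members in the top 5% and the highest median of any list, 2.85. Oaz3, the antizyme of spermatids, scored 4.38 and 4.53 in Control 02 and 06, against 4.71 on each of the other 4. Spata6, needed in the mouse for the joint of sperm head and tail, had a lowest score of 3.87 in Control 02, a median of 4.22 and a highest of 4.24. The list went on with Tcp11 (mean 3.74), a sperm protein of the t-complex, Spata20 (3.68) and Spata19 (3.56), a protein of sperm mitochondria. Of the acrosome list, 8 of 19 genes were in the top 5%. Crisp2, a cysteine-rich protein of acrosome and tail, scored 4.45 to 4.67 with a median of 4.50. The ADAM genes Adam3a, known in the mouse for sperm binding to the zona pellucida, and Adam32 averaged 3.61 and 3.24. Acrbp, which binds proacrosin, averaged 2.80, and Adam2, the beta subunit of fertilin, 2.75.

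Energy metabolism was represented by the isozymes that germ cells use. Of these, 9 of 12 were in the top 5%, against 3 of 13 of the somatic list. Gapdhs, the sperm form of glyceraldehyde-3-phosphate dehydrogenase, had a lowest score of 4.09, a median of 4.13 and a highest of 4.33, and Ldhc, the testis lactate dehydrogenase, of 3.94, 4.04 and 4.09. The mitochondrial channel Vdac3 averaged 3.52, the hexokinase gene Hk1, which also has a sperm form, 3.41, and Cox6b2, a testis subunit of cytochrome c oxidase, 3.04. The first 4 of these had SDs of 0.0398 to 0.111 after quantile normalization. As deposited the SDs of Gapdhs and Ldhc were 1.08 and 0.979. Cox6b2 scored 2.57 and 2.33 in Control 02 and 06, against 3.32 to 3.36 in the other 4. Somatic isozymes in the top 5% were Ldha (3.19), Aldoa (2.88) and Eno1 (2.69), which code for a lactate dehydrogenase, an aldolase and an enolase. These lists compare scores of different probe sets, so the counts describe places in the ranking.

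The plot of the 30 leading genes shows where the 6 arrays placed them. COX1 and COX2, subunits of cytochrome c oxidase encoded in the mitochondrial genome, averaged 4.68 and 4.52. The other places went to Gsg1 (4.47), a germ cell gene, Pebp1 (4.34), a lipid-binding inhibitor of Raf kinase, Fam229b (4.27), Hspb9 (4.11), a small heat shock protein of testis, Psma6 (4.05), a proteasome subunit, Cmtm2a (4.04), Fabp9 (4.03), a fatty acid binding protein of the sperm head, and Gpx4 (4.01), a selenium enzyme that also forms the mitochondrial capsule. They also went to the chromatin gene Morf4l1 (3.99), Plaat5 (3.97), an acyltransferase, Tspan6 (3.95), a tetraspanin, Glul (3.90), Dnaaf1 (3.88), an assembly factor of axonemal dynein arms, Asrgl1 (3.84), an asparaginase-like enzyme, and Reep6 (3.82). Hspb9 had the largest SD of the 30, with 3.46 and 3.84 in Control 02 and 06, against 4.28 to 4.55 in the other 4. These orders of arrays hold after normalization, since as deposited all 30 genes were highest in Control 02, the array of wider range. Pgp (3.791) was the first gene outside the 30, next to Reep6 (3.818). Among the 30 probe sets of highest mean, 8 had no gene symbol and are not named here.

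**Figure D2:**
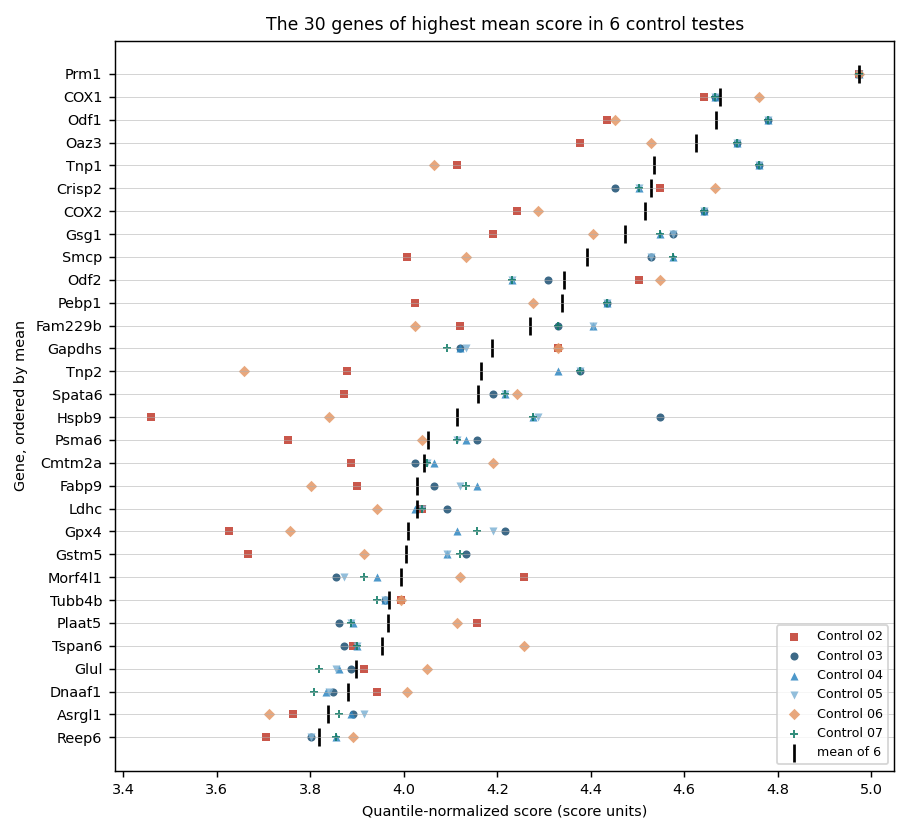
Quantile-normalized scores (x axis, score units) of the 30 genes of highest mean, 1 row per gene from Prm1 at the top, with 1 symbol per Control array and a black bar at the mean of the 6. Prm1 sits at 4.97 on each array by construction, while Tnp1, Tnp2, Smcp and Hspb9 show Control 02 and 06 to the left of the other 4.

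Genes of protein turnover and protein synthesis ranked high as well. Of 20 ubiquitin and proteasome genes known from spermatids, 11 were in the top 5%, led by the ubiquitin ligase Rnf138 (3.71), the conjugating enzyme Ube2j1 (3.36) and the protease Usp2 (3.31). Cytosolic ribosomal proteins, which all cells use, had 30 of 43 in the top 5%, and Rpl41 (3.37), Rps3a (3.36) and Rpl27a (3.32) stood first. Of 86 genes of the respiratory chain and ATP synthase, 17 were there, with Uqcrfs1 (3.51), an iron-sulphur subunit of complex III, and Cox7b2 (3.49), a testis form of a cytochrome c oxidase subunit, in front. Of 21 heat shock genes, 6 were in the top 5%, among them Hspb9, Dnajb3 (3.33) and Hspa2 (3.18), the chaperone of spermatocytes and spermatids.

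Earlier germ cells had fewer genes in that range. Of 17 spermatocyte genes, 5 were in the top 5%, which were Hspa2, Sycp3 (3.01), a protein of the synaptonemal complex, Meig1 (2.67), the piRNA pathway gene Tdrd1 (2.59) and Stag3 (2.55), a cohesin of meiosis. Of 15 spermatogonial genes, 0 were there and the list's median was 0.0918. Id4, known in the mouse from spermatogonial stem cells, led it with a lowest score of 1.07, a median of 1.13 and a highest of 1.48. The ubiquitin hydrolase Uchl1 followed (mean 1.15). The 4 probe sets of Id4 went in opposite directions. One scored 0.443 and 0.433 in Control 02 and 06, against 0.770 to 0.906 in the other 4. Another scored 1.60 and 1.16 in the pair, against 0.414 to 0.462. Kit, the receptor of differentiating spermatogonia, averaged -0.0165 and so lay below the median gene.

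Of the somatic cells, Sertoli cell genes reached highest. Clu, a secreted chaperone, scored 3.05 in Control 06 as its lowest, with a median of 3.26 and a highest of 3.31. Its second probe set averaged 0.0560, below the median gene. That probe set was highest in Control 02 and 06 (0.380 and 0.109, against -0.0647 to -0.00917). Aard (mean 3.07) and Cldn11 (2.38), a claudin of the blood-testis barrier, were the other members of the 24 in the top 5%, and both were highest in Control 02 and 06. Ctsl, a cathepsin, averaged 2.12 and Inhbb, the beta B subunit of inhibin, 0.487. Amh, a hormone of the immature testis, averaged -0.133, below the median gene. Of 19 Leydig cell genes, 0 were in the top 5%, though 15 lay at or above the median gene. Fdx1, an electron donor of steroid synthesis, averaged 1.79, the epoxide hydrolase Ephx1 1.68, and the steroid enzymes Cyp17a1, Hsd3b1 and Hsd11b1 1.59, 1.501 and 1.32.

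Other somatic lists had at most 1 gene in the top 5%. Peritubular and smooth muscle genes (0 of 15) were led by Myl9, a myosin light chain, with a mean of 1.37, and matrix genes (0 of 20) by Mgp, matrix Gla protein, with 1.65. Acta2, smooth muscle actin, averaged 0.944 and Dcn, the proteoglycan decorin, 0.645. Of 21 macrophage genes 1 was in the top 5%, Aif1 (2.41), while Cd74, the invariant chain of MHC class II, averaged 0.937 and the lysozyme gene Lyz2 0.877. Endothelial genes (0 of 14) reached no more than 0.441 in Cldn5, a claudin.

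Genes of neighbouring tissues had low scores. Of 7 epididymal genes 0 were in the top 5%, and the list's median, -0.122, lay below the median gene, but Wfdc10a reached a mean of 1.61 and the water channel Aqp9 1.09. Of 10 adipocyte genes, 9 lay below the median gene, and Lipe (1.54), a lipase that germ cells also make, was the exception. Erythrocyte genes had a median of -0.0601, with Hbb, beta globin, at a mean of 1.16. The immediate early genes, which respond within minutes to many stimuli, had a median of -0.0357, and Fos and Egr1 averaged -0.0552 and -0.0489. Of 18 cholesterol synthesis genes, 1 (Fdps, 2.71) was in the top 5%, and Cyp51, the enzyme that triazoles bind, averaged 1.26. Of 19 genes of xenobiotic metabolism, 1 was there, the glutathione transferase Gsta1 (2.49).

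The genes that varied most over the 6 arrays followed the split of Control 02 and 06 from the rest. Variation was ranked by SD among the 7109 genes at or above the median mean, and the top 5% held 355 genes (4.99%), with Zbtb44 (SD 0.3144) just inside and Slc17a2 (0.3142) just outside. Of these 355 genes, 77.2% were lower in both Control 02 and 06 than in each of the other 4, and 16.9% were higher in both. Over all 14217 genes the shares were 28.1% and 26.2%, and those over the 7109 ranked genes were not counted. An SD over the 6 arrays is large where the pair differs from the rest, so these shares follow in part from the ranking. The median SD was 0.119 over the 6 arrays and 0.036 over the 4 arrays without the pair. Ranking without the pair kept 3 of the 30 genes of highest SD.

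Of those 30 genes, 25 were lower in both arrays of the pair, 3 were higher in both and 2 did neither. H2al2l, a histone H2A form of the testis, scored 1.75 and 1.93 in Control 02 and 06, against 3.18 to 3.39 in the other 4, and had the largest SD, 0.746. Atp5mg, a subunit of ATP synthase, scored 1.01 and 1.12 in the pair, against 2.44 to 2.59. Dbil5, an endozepine-like peptide of spermatids, scored 2.19 and 2.94 in the pair, against 3.87 to 3.94. The groups of 2 and 4 arrays did not overlap in any of these 3 genes. Next came Ubl5, a ubiquitin-like protein (SD 0.717), Selenow, a selenoprotein (0.641), Pfdn5, a subunit of the chaperone prefoldin (0.627), the cytokine gene Mif (0.626), the actin-binding thymosin Tmsb4x (0.620) and Dbi, an acyl-CoA binding protein (0.615). Each of these 6 was lower in both arrays of the pair.

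Mt1, a metallothionein that binds zinc and cadmium, ran the other way with 1.76 and 0.712 in Control 02 and 06, against 0.220 to 0.271 in the other 4. Its mean over the other 4 was 0.237, below the median gene (0.275), so it entered this ranking only through the pair. The others higher in the pair were a probe set of Cox5a (1.71 and 0.902, against 0.339 to 0.384), a subunit of cytochrome c oxidase, and Sync (2.41 and 1.70, against 0.928 to 1.41), an intermediate filament protein. Lower in the pair were also Gstm2, Serf2, Riiad1, Tex56p, Pdzk1ip1, Cst3, Cox5b, Meig1, Resp18, Chrne and Gtsf1l, with SDs of 0.537 to 0.604. The last gene of the 30, Rps9, had an SD of 0.5315 and the next, Atp5mf, of 0.5281.

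Genes of ribosomes and of the respiratory chain and ATP synthase had a larger share of members in this range than all genes ranked. They held 5 and 3 of the 30 genes of highest SD. The ribosomal count in the top 5% was smaller as deposited, as given below. Of 40 ribosomal protein genes at or above the median mean, 23 were in the top 5% by SD, and of 79 genes of the respiratory chain and ATP synthase 35 were, against 4.99% of all genes ranked. Rpl11 scored 2.14 and 2.13 in Control 02 and 06, against 3.30 to 3.33 in the other 4. Without the pair, 2 ribosomal and 3 respiratory genes were in the top 5%. Insl3, the relaxin-like hormone of Leydig cells, showed the same split, with 0.530 and 0.476 in the pair, against 1.23 to 1.39. The wider 3' to 5' gaps of beta-actin and GAPDH in Control 02 and 06, given above, moved with these genes, and their part was not tested.

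The direction of whole lists between the pair and the other 4 arrays turned on the scaling. The mean over all genes of the pair minus that of the other 4 was -0.00252 after quantile normalization, 0.0586 after centring each array and scaling it to a common interquartile range, and 0.143 as deposited. Cytosolic ribosomal proteins differed by -0.485 and -0.240 under the first and second scaling, but by 0.0576 as deposited. The respiratory list differed by -0.409, -0.248 and -0.0377, which is negative under all 3. Protamines, transition proteins and testis histones differed by -0.348 after quantile normalization, but by 0.0651 after centring and scaling and by 0.396 as deposited. Of the 30 genes of highest SD, 25, 25 and 23 were lower in both arrays of the pair under the 3 scalings in that order. The sign of 6 genes named above held under all 3. H2al2l (-1.44 quantile normalized, -1.23 centred and scaled, and -0.922 as deposited), Atp5mg (-1.43, -1.30 and -1.09), Dbil5 (-1.34, -1.06 and -0.68), Rpl11 (-1.18, -0.927 and -0.589) and Insl3 (-0.84, -0.776 and -0.661) had a negative difference and Mt1 (1.0, 1.18 and 1.33) a positive one. The SD ranking itself did not hold as deposited, where the 30 leading genes were each highest in Control 02, were led by Prm1 (SD 1.59) and shared 0 with the 30 named here.

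**Figure D3:**
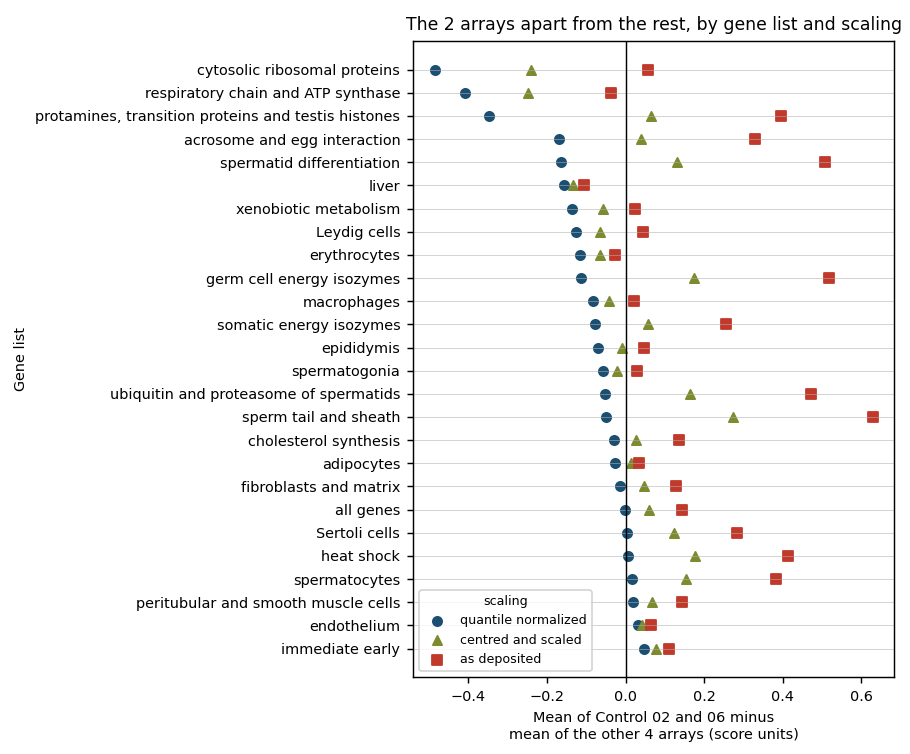
Mean score of Control 02 and 06 minus that of the other 4 Control arrays (x axis, score units) for each gene list and for all genes, with circles for quantile normalization, triangles for centring and scaling, and squares for the scores as deposited. Ribosomal proteins (-0.485, -0.240 and 0.0576) and protamines with their list (-0.348, 0.0651 and 0.396) change sign between scalings, while the liver list (-0.156, -0.133 and -0.106) does not.

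Without Control 02 and 06, variation between the remaining animals was smaller, and all but 3 of its 30 leading genes were others. The 3, RT1-Bb, Alb and Sync, were also among the 30 over 6 arrays. Genes of this ranking were chosen for description after their values were seen. SDs over these 4 arrays come from quantile normalization of the 4 alone, and the scores given are those of all 6. Of the 30 genes of highest SD, 27 were shared with the ranking of the deposited scores of the same arrays, 29 with that of the 6-array normalization and 17 with that after centring and scaling. In 15 of the 30 genes Control 03 lay farthest from the median of the 4 arrays and below it. The share over all ranked genes was not counted, so this number describes the 30 genes alone. Over all probe sets Control 03 correlated with Control 04, 05 and 07 at Pearson r = 0.9944 to 0.9947. Those arrays correlated with one another at 0.9959 to 0.9984.

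The first place went to a class II gene of the major histocompatibility complex, whose molecules present peptides to T cells and are known to be highly polymorphic. RT1-Bb, a class II beta chain, had a pair of probe sets that went in opposite directions. The first scored 0.636, 1.11, -0.0603, 1.24, 1.19 and 1.53 in Control 02 to 07 (SD 0.651 over the 4 arrays). The other scored 0.617, 1.18, 1.52, 0.817, 0.463 and -0.251 (SD 0.724). The first was thus lowest in Control 04, where the other was highest, and highest in Control 07, where the other was lowest. No level of RT1-Bb can therefore be given from these arrays.

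The array held 31 probe sets of the RT1 family, under 18 symbols, and 12 of them lay at or above the median gene. The median SD of those 12 was 0.277 over the 6 arrays and 0.184 over the 4, against 0.119 and 0.036 for all genes at or above the median mean. Over all 31 it was 0.102 and 0.0536, against 0.0768 and 0.0333 for all genes. RT1-CE12, a class I gene, scored 2.43 and 1.70 in Control 02 and 06, against 1.34 to 1.67 in the others, and RT1-A, another class I gene, 0.768 and 0.488 in the pair, against 0.897 to 1.44. RT1-CE10 scored 1.08 and 1.15 in Control 05 and 07, against 0.415 and 0.556 in Control 03 and 04. RT1-T24-4 ran from -0.0207 in Control 07 to 0.698 in Control 04 among the 4. RT1-Da, a class II alpha chain, stayed between 0.454 and 0.722 over the 6 arrays, and Cd74 between 0.633 and 1.12. Family members share sequence, so a probe set may bind more than 1 of them. Ciita, the activator of class II transcription, scored 0.552, 0.470 and 0.374 in Control 05 to 07, against 0.989, 0.999 and 0.909 in Control 02 to 04. Its second probe set scored 0.0602, 0.245 and -0.221 in Control 05 to 07, against 0.857, 0.530 and 0.453 in Control 02 to 04.

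**Figure D4:**
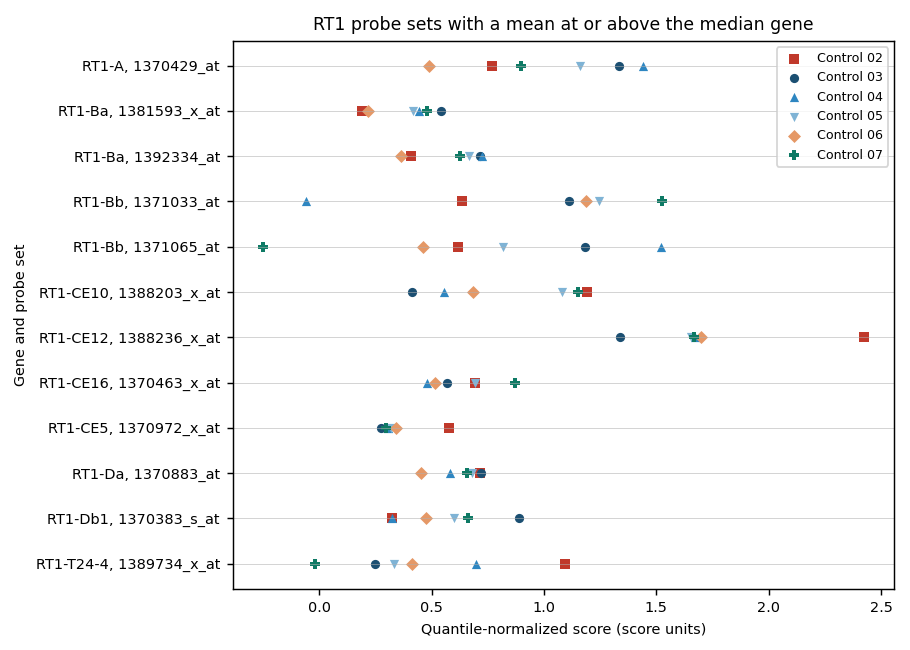
Quantile-normalized scores (x axis, score units) of the 12 RT1 probe sets with a mean at or above the median gene, 1 row per probe set and 1 symbol per Control array. The RT1-Bb rows place Control 04 at -0.0603 and 1.52 and Control 07 at 1.53 and -0.251, on opposite ends.

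Liver transcripts also differed between the control animals. Alb, albumin, scored 0.135 and 1.35 in Control 02 and 06, against 1.69, 1.59, 1.01 and 0.616 in Control 03, 04, 05 and 07. Its second probe set kept the high place of Control 03 and 04, with 1.36 and 1.24, against -0.0801 to 0.760 on the rest. Of the 16 genes of the liver list, 14 were highest in Control 03, against 21.9% of all genes. As deposited the count was 12, against 13.0% of all genes, and after centring and scaling 13, against 18.1%. Rup2, which was not on the list, scored 0.9996 in Control 03 and 0.649 in Control 04, against 0.322 and 0.0386 in Control 05 and 07. Within the list, Apoc3, an apolipoprotein, scored 0.524 in Control 03, 0.338 in Control 04 and -0.110 to 0.245 in the others. Ttr, transthyretin, scored 0.512 in Control 03, 0.282 in Control 04 and -0.00736 to 0.150 in the others, and Serpina1, an antitrypsin, 0.397, 0.260 and 0.0170 to 0.182. The mean of the list was 0.311 in Control 03, 0.227 in Control 04, 0.116 in Control 05, 0.0718 in Control 06, 0.0509 in Control 07 and -0.0314 in Control 02. The exceptions were Hp, haptoglobin, highest in Control 04, and Fgg, a fibrinogen chain, highest in Control 06. Only 3 of the 16 genes lay at or above the median gene, so most of these scores were low. The labelling protocol of the study covers liver RNA as well as testis RNA, and whether that bears on these scores was not tested.

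Leydig cell genes varied in another order. Of the 15 at or above the median mean, 6 were in the top 5% by SD over the 4 arrays, against 4.99% of all genes ranked. Cyp17a1, which makes androgens from progestagens, scored 1.94 in Control 04, against 1.60, 1.57 and 1.38 in Control 03, 05 and 07. Hsd3b1, which turns pregnenolone into progesterone, scored 1.56 in Control 04, against 1.31, 1.42 and 1.37, and Star, which carries cholesterol into mitochondria, 0.841, against 0.620, 0.648 and 0.492. Cyp11a1, the side chain cleavage enzyme (1.34 in Control 04, against 1.01 to 1.16), Lhcgr, the receptor of luteinizing hormone (0.654, against 0.394 to 0.517), and Hsd11b1 (1.49, against 1.22 to 1.47) were also highest there. Over the whole list, 10 of 19 genes were highest in Control 04 among the 4 arrays, against 26.2% of all genes. As deposited 10 were, against 31.0% of all genes. After centring and scaling 9 were, against 28.2%, and another 9 were highest in Control 03, against 37.2%. Insl3, another Leydig cell product, was 1.38 in Control 03 and 1.39 in Control 04, 1.37 in Control 05 and 1.23 in Control 07, so it did not set Control 04 apart.

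**Figure D5:**
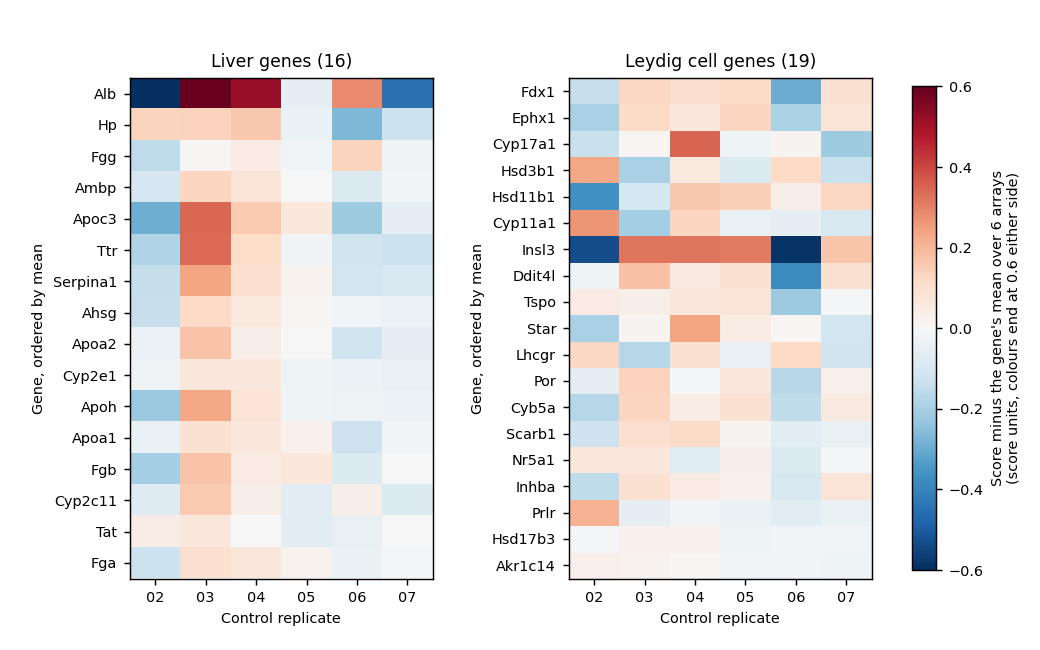
Heat maps of the score minus the gene's mean over the 6 arrays (colour, score units, ending at 0.6 either side) for 16 liver genes on the left and 19 Leydig cell genes on the right, with 1 row per gene and 1 column per Control replicate. Red marks a score above the gene's mean. The liver genes are reddest in Control 03 (14 of 16 highest there), and Cyp17a1 and Star in Control 04.

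Matrix genes had 6 of 12 ranked members in the top 5% over the 4 arrays, which were Igf1, Col1a2, Pdgfra, Col1a1, Dcn and Col3a1. Col1a1, a collagen chain, scored 0.776 and 0.766 in Control 07 and 05, against 0.628 and 0.570 in Control 04 and 03. Dcn scored 0.807 and 0.791 in Control 07 and 05, against 0.655 and 0.547 in Control 04 and 03. Igf1, the growth factor, scored 1.40 in Control 04, against 1.29, 1.27 and 1.05 in Control 05, 07 and 03. All 3 were thus lowest in Control 03.

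Some leading genes rested on 1 array. Ythdf2, a reader of methylated RNA, scored 0.329 in Control 04, against 1.26 to 1.40 on the other 5 arrays, and its second probe set was also lowest in Control 04, at 0.505, against 0.578 to 0.781. Wtap, a partner of the RNA methyltransferase, scored 0.917 in Control 07, against 1.43 to 1.88 on the other 5, while its second probe set was 0.419 in Control 07, within the 0.384 to 0.567 of the other 5. Prss35, a protease-like gene, scored 0.992 in Control 04 and -0.199 in Control 07, against 0.538 and 0.535 in Control 03 and 05. Another set was lowest in Control 03. Dnai1, a dynein chain of the axoneme, scored 1.18 there, against 1.42, 1.80 and 1.98 in Control 04, 05 and 07. Prrc2c, an RNA-binding protein gene, scored 2.51 in Control 03, against 2.99 to 3.08, and Itih3, a serum inhibitor heavy chain, 1.45, against 1.86 to 2.00. Sycp1, of the synaptonemal complex, scored 0.521 and 0.671 in Control 05 and 07, against -0.155 and 0.0715 in Control 03 and 04.

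The animal numbers fall into a later run (Control 05 to 07) and an earlier run (Control 02 to 04), and limma found 0 of 31042 probe sets that differed between them (0.0% called, Benjamini-Hochberg threshold 0.05). The smallest adjusted p was 0.996, and 1002 probe sets had an unadjusted p under 0.05, where 1552 would lie if no probe set differed. That count ran from 536 (without Control 06) to 1340 (without Control 02) with 1 array left out, and was 540, 558 and 634 without Control 05, 07 and 03. It reached 4012 when the fit held the beta-actin gap as a term, and 3488 without Control 02 and 06. The names that follow leave out probe sets without a single gene symbol and give 1 probe set per gene. Among these, the smallest unadjusted p of a higher probe set belonged to Arhgap26. It had 0.289 ± 0.09 in later and -0.182 ± 0.0213 in earlier animals (SD, n = 3 each, adjusted p 0.996 by limma). The second Arhgap26 probe set scored -0.312, -0.0105 and -0.281 in Control 05 to 07, against -0.281, -0.392 and -0.345 in Control 02 to 04. Ciita had the smallest unadjusted p of a lower probe set. It had 0.465 ± 0.0889 in later and 0.966 ± 0.0491 in earlier animals (SD, n = 3 each, adjusted p 0.996 by limma). Next among the named were higher probe sets of Mfap3 (difference 0.26) and Hspa9 (0.22) and lower ones of Actg1 (-0.15) and Stard3 (-0.15). Each of these had an adjusted p of 0.999 by limma. Without Control 02 and 06, which leaves pairs of arrays, 8 probe sets passed, all of them higher in later animals, with a smallest adjusted p of 0.0067.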

How the data were processed

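Per the labels' protocols, testis RNA was isolated in TRI Reagent, DNase treated, purified over RNeasy columns and inspected on a Bioanalyzer. Reverse transcription started from oligo-dT, and biotin-labelled cRNA was hybridised to Affymetrix Rat Genome 230 2.0 arrays. The authors deposited 1 score for each probe set and array, in log-like units, with array medians of 0.00262 to 0.0489 over the 6 Control arrays. The submitters' summarisation, background correction and normalization are not stated in the labels or headers. The number of arrays limits the precision.

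Of 31099 probe sets, 57 control probe sets were left out and 31042 analysed. The platform annotation paired 20826 of these with 1 symbol, 436 with several and 9780 with none, and genes were named from single-symbol probe sets alone. The 6 arrays were quantile normalized with limma 3.58.1 in R 4.3.3, and the other steps used Python 3.11.15, pandas 2.3.3 and numpy 2.4.6. The ranking and the fit were also run on simulated data with the SDs of the 4 arrays without Control 02 and 06. Those data held no array set apart, so they do not check either method on the 6 arrays. Levels and SDs over 1 group are descriptions with no test. The 1 test was limma's, later minus earlier animal numbers, adjusted by Benjamini-Hochberg over all 31042 probe sets.

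The genes named are the 30 of highest mean, the 30 of highest SD at or above the median mean, the 5 of highest mean and 3 of highest SD of each list described, the 3 of smallest p in each direction of the test, and a set of marker genes, of which Gapdh, Pgk2, Zbtb16, Sox9 and Actb had no single-symbol probe set used here. The members and 25 lists were chosen with earlier results of these data known. Genes of the ranking without Control 02 and 06, the RT1 family, further liver, Leydig and matrix genes, list members at the low end, Crem, Hils1, Rup2 and the promoter motifs were chosen after values were seen. Promoters come from RefSeq, build GRCr8.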

Additional observations from a re-analysis of the deposited data

Results flagged for a closer look

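Of 127 gene scores and list means tested, 16 had 1 array far from the others, with a gap to the nearest array that made up most of the whole range of the 6 (Dixon's criterion). Chance flags about 1 in 20 such groups when they are picked without regard to their values. Many of the 127 were named for their spread or after values were seen, and all share the same 6 arrays. The 16 flags are therefore not set against that rate. Control 06 held 8 of these values, Control 02 held 6, and Control 03 and Control 04 held 1 each.

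Control 06 stood lowest in Prm2 (3.53), Clu (3.05), Fos (-0.167), and in the list means of somatic energy isozymes (1.32) and epididymal genes (0.181). It stood highest in COX1 (4.76) and Akap4 (3.76). In a probe set of Arhgap26 it scored -0.0105. Control 02 stood lowest in Spata6 (3.87) and highest in Mt1 (1.76) and in the list mean of immediate early genes (0.17). It also stood apart in a probe set of RT1-Ba (0.386) and in 2 probe sets of Sv2b, a synaptic vesicle protein gene (-0.336 and -0.29). Control 04 stood lowest in Ythdf2 (0.329), and Control 03 apart from the rest in a probe set of Robo2, an axon guidance receptor gene (-0.0379).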

How the results depend on the processing

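No paired analysis was possible because 1 group was analysed, and replicate numbers within it pair no samples. The level ranking kept its leading genes, sharing 29 of 30 both as deposited and after centring and scaling, 29 to 30 with 1 array left out and 23 with the mean over a gene's probe sets. Spermatid and sperm genes in the top range numbered 52 to 55 with 1 array left out and 27 at the top 1%. Somatic genes numbered 4 with any 1 array left out, 1 with the mean over probe sets, 1 at the top 1% and 9 at the top 10%. The SD ranking depended on scaling. It shared 0 of 30 genes as deposited, 1 after centring and scaling, 3 without Control 02 and 06, and 19 (without Control 02) to 29 with 1 array left out. The 23 ribosomal genes became 8 as deposited, 2 without Control 02 and 06, 9 at the top 1%, 15 among genes above bioB, and 16 to 27 with 1 array left out. Over 4 arrays, in alternatives added after the data were seen, 17 of 30 genes were shared after centring and scaling. The later minus earlier fit called 0 probe sets with 1 array left out and 8 without Control 02 and 06. Of the other counts for single lists, 275 of 300 for levels and 292 of 408 for variation stayed within 1.5 times. The cause of these shifts was not tested. With 6 arrays and scores of unknown base, small differences between animals cannot be resolved, and most probe sets lay under bioB.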

Other observations

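Over the 4 arrays without Control 02 and 06, the array on which a gene was highest also varied by gene group. Of 43 cytosolic ribosomal protein genes, 26 were highest in Control 03 after quantile normalization, against 36.6% of all genes, but 18 as deposited and 19 after centring and scaling. Of 86 genes of the respiratory chain and ATP synthase, 54 were highest in Control 03 after quantile normalization, 53 as deposited and 59 after centring and scaling. The share of all genes highest in Control 03 was 36.6%, 34.0% and 37.2% under the 3 scalings in that order. Of 20 genes of spermatid differentiation, 17 were highest in Control 04 both as deposited and after centring and scaling, but 6 were after quantile normalization. Of all genes, 31.0%, 28.2% and 26.2% were highest in Control 04 under these scalings in that order. Of 10 adipocyte genes, 6 were highest in Control 04 under all 3 scalings. These counts were made after the values were seen and are given as a description.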
